A study of Mus musculus with 14 samples.

Results

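The Hox genes encode homeodomain transcription factors and lie in 4 clusters in the mouse genome, Hoxa, Hoxb, Hoxc and Hoxd. The 4 clusters hold 39 Hox genes, of which 38 are described singly here, out of 20609 protein-coding genes with a start. They were chosen by name, with earlier results of these data known. Each cluster was treated as 1 locus that runs from 10 kb outside its first gene to 10 kb outside its last gene. On GRCm38 (mm10) the Hoxa locus is chr6:52145367-52270880 (126 kb, 11 genes, 10 of them described singly). The Hoxb locus is chr11:96184316-96378254 (194 kb, 10 genes), the Hoxc locus is chr15:102911131-103046856 (136 kb, 9 genes) and the Hoxd locus is chr2:74658225-74775142 (117 kb, 9 genes). Together they span 572 kb.

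The cells were blastocyst-derived mouse embryonic stem cells of strain C57BL/6J with the genotype Mll1fl/fl; Cre-ER TM, so all 3 conditions carried floxed Mll1 alleles and a Cre recombinase that 4-hydroxytamoxifen (4-OHT) switches on. Cells were grown with 100 µM MM-401, an inhibitor of MLL1, or with 5 µM 4-OHT to delete Mll1, for 9 days over 3 passages, or were left untreated. All were kept on Matrigel with no feeder cells, and the medium held LIF, 15% serum replacement and 5% serum. Chromatin immunoprecipitation with sequencing measured H3K4me1, H3K4me2 and H3K4me3 in each condition, and Mll1 in untreated cells only. Each mark in each condition is 1 library and the labels name no clone or passage of origin, so no difference below has a replicate check and no test between conditions was possible.

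Along a Hox cluster, gene order follows the body axis: low-numbered (anterior) genes act towards the head and high-numbered (posterior) genes towards the tail. Genes of the same number in different clusters are paralogs. In embryonic stem cells the clusters are largely silent and carry H3K4 methylation together with the Polycomb mark H3K27me3, which was not measured here. Mll1, also called Kmt2a, is a histone H3K4 methyltransferase best known for maintaining Hox gene expression, and MM-401 blocks its interaction with Wdr5. H3K4me3 marks active and poised promoters, H3K4me1 flanks promoters and marks enhancers, and H3K4me2 lies between them.

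Filtered tags per library, after removal of duplicates by the authors, were fewest for H3K4me3 after MM-401 (12.9 M, with M for 1000000 tags) and most for H3K4me1 after 4-OHT (61.8 M). MM-401 libraries held 60.3%, 49.5% and 51.2% of the tags of the untreated libraries for H3K4me1, H3K4me2 and H3K4me3, and 4-OHT libraries held 167%, 121% and 105%. Per the file headers the MM-401 libraries were processed in another folder from all others and had longer tags (57 to 60 bp, against 50 to 51 bp), so MM-401 and this difference in handling cannot be told apart in any value below. H3K4me3 stood at the starts of 5 of 6 stem cell markers in all 3 conditions. Nanog had 93.3, 55.8 and 60.6 tags per M after MM-401, after 4-OHT and untreated. Esrrb had no H3K4me3 peak at its start in any condition. Its annotated start also had little H3K4me2, at 0, 1.56 and 2.12 tags per M in the same order, and may not be the promoter in use. Of 12 markers of fibroblasts, neural cells, endoderm and blood with a start, 10 also had H3K4me3 at their starts, at 6.03 to 52.5 tags per M after MM-401, 8.79 to 54.9 after 4-OHT and 7.99 to 53.0 in untreated cells. The other 2, Afp (endoderm) and Ptprc (blood), had no peak of any mark. The start of Kmt2a itself had 88.0, 81.4 and 82.1 tags per M of H3K4me3 after MM-401, after 4-OHT and untreated, a reading that does not test the deletion, and no Mll1 library was made after treatment.

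Promoter sequences are shown for the member with the most H3K4me3, the untreated member with the least, and the member nearest to an Mll1 peak. They are from RefSeq (GRCm38.p6), run from 250 bases before to 50 after the start, and have each CG dinucleotide in capitals. Mll1 has a CXXC domain that binds unmethylated CG dinucleotides. In order they are chr6:52204538-52204837 (minus strand, 29 CG), chr2:74721728-74722027 (plus strand, 4 CG) and chr6:52164782-52165081 (minus strand, 9 CG).
Hoxa5: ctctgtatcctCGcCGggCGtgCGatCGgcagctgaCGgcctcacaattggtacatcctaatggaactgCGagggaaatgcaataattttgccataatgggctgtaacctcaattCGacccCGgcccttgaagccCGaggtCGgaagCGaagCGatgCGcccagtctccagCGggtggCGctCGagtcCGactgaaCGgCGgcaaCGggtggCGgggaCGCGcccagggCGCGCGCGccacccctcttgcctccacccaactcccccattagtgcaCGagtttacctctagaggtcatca
Hoxd4: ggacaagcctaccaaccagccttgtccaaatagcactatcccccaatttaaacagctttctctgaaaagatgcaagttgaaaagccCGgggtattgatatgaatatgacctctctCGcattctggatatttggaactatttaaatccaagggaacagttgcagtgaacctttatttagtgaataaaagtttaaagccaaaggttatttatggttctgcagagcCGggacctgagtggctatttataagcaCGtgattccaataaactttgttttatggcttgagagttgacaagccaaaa
Hoxa2: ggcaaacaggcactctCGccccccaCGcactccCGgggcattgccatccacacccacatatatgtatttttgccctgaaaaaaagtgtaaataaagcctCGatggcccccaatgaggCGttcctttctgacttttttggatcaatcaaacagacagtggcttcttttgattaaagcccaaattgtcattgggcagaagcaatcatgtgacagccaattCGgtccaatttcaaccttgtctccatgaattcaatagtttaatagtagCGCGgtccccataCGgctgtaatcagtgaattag
The table held a promoter for 22 of the 38 members, with a median of 13.5 CG dinucleotides (range 4 to 45), against a median of 13 over the 17492 protein-coding genes with a promoter in it. AGGTCA, the half-site of retinoic acid receptors, was found on either strand in 7 of the 22 Hox promoters and in 14.5% of all promoters. TATAAA was found in 3 of the 22 and in 13.3% of all. A match describes the letters of this window and shows no binding.

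H3K4 methylation covered the Hox loci densely. H3K4me1 peaks covered 53.8% of the 572 kb after MM-401, 60.1% after 4-OHT and 57.4% in untreated cells, while the same libraries covered 8.19%, 12.5% and 10.7% of the effective genome size of MACS. H3K4me2 covered 49.9%, 51.4% and 50.3% after MM-401, after 4-OHT and untreated, against 5.62%, 8.14% and 7.08% of the genome. H3K4me3 covered 34.5%, 35.8% and 35.5%, against 2.71%, 3.88% and 3.38% of the genome. For every mark the 3 conditions lay close together in the loci, with 4-OHT cells the most covered. The peaks numbered 93, 102 and 103 for H3K4me1, 91, 111 and 103 for H3K4me2, and 81, 95 and 95 for H3K4me3, again after MM-401, after 4-OHT and untreated.

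The 3 marks lay largely on the same bases. H3K4me1 overlay 95.1% of the bases under H3K4me3 after MM-401, 98.5% after 4-OHT and 97.4% in untreated cells, and H3K4me2 overlay at least 99.5% in each. All 3 marks together held 32.8%, 35.2% and 34.6% of the loci after MM-401, after 4-OHT and untreated. No mark was called on 42.6%, 39.1% and 40.5% of the loci.

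**Figure D1:**
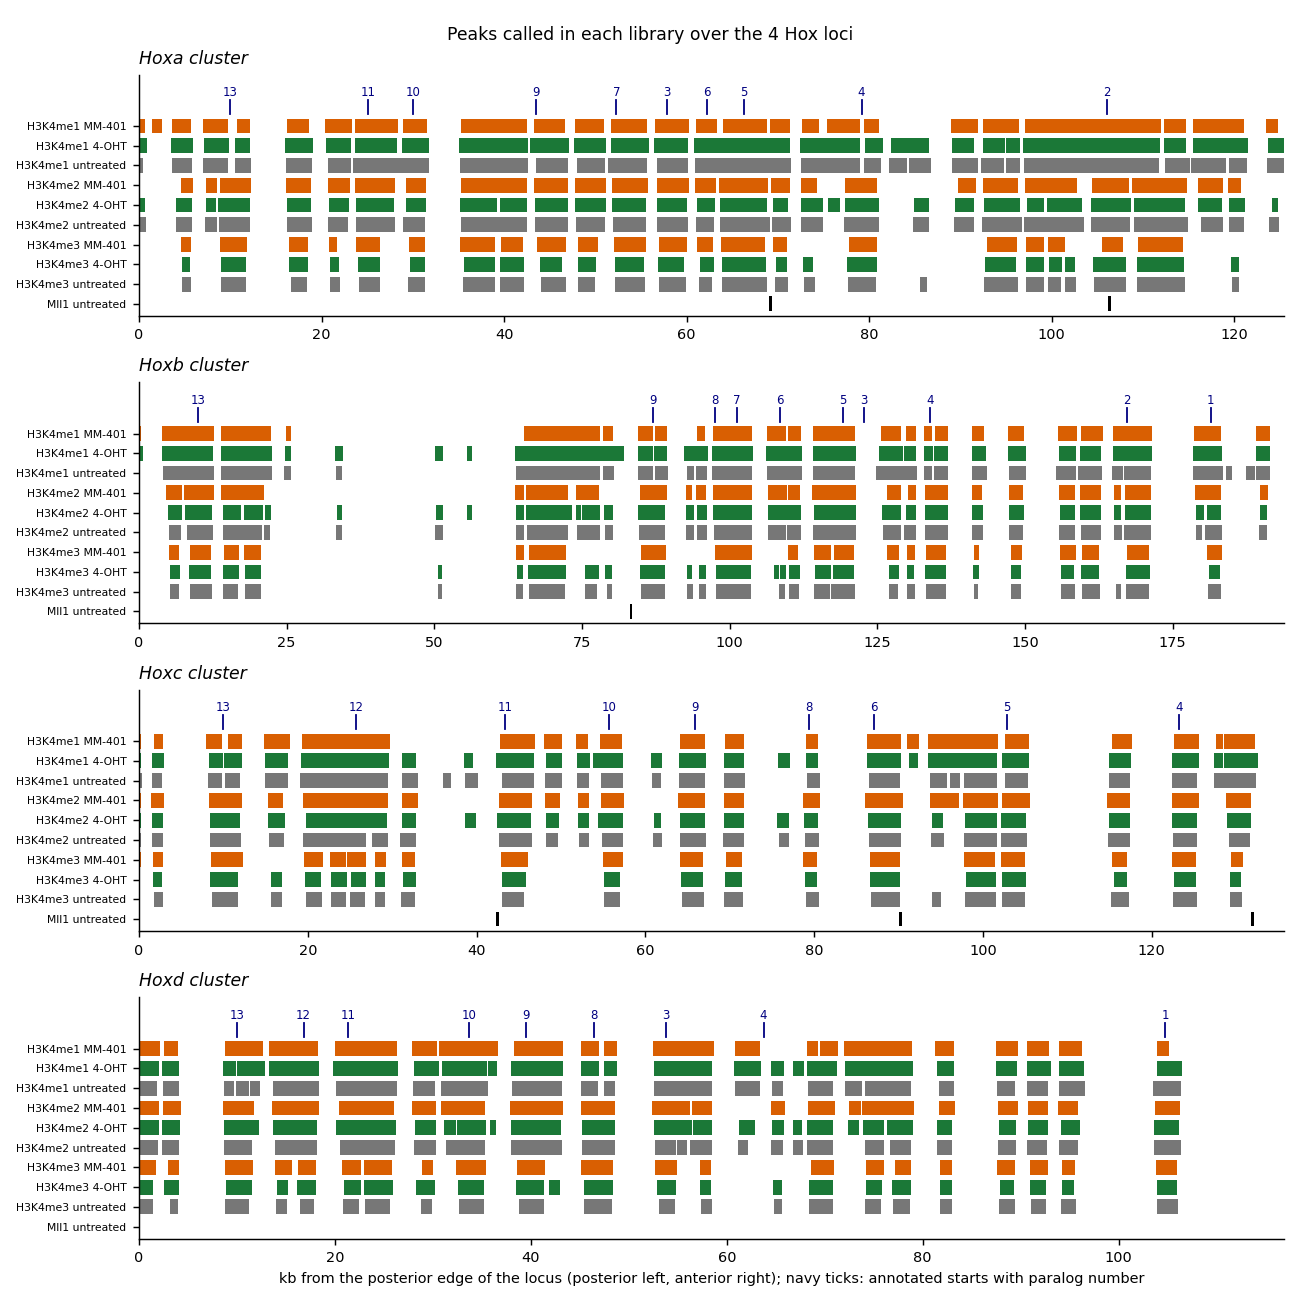
Peaks of each library along the 4 loci, in kb from the posterior edge, with MM-401 (orange), 4-OHT (green) and untreated (grey) tracks for each mark, Mll1 peaks (black, widened to be visible) and annotated gene starts with their paralog numbers (navy). Most peaks recur in the 3 conditions, Hoxa is the most filled and Hoxd has no Mll1 peak. In Hoxb few peaks lie from 30 to 60 kb, between Hoxb13 and Hoxb9.

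The Hoxa locus was the most heavily marked. H3K4me3 covered 44.1% of it after MM-401, 45.4% after 4-OHT and 46.9% in untreated cells, and Hoxb, Hoxc and Hoxd stood between 29.7% and 36.5% in the 3 conditions. H3K4me1 covered 71.3%, 78.9% and 78.0% of Hoxa after MM-401, after 4-OHT and untreated. A single H3K4me1 peak of 14881, 14977 and 14773 bp in the 3 conditions lay across Hoxa2, a hindbrain and neural crest patterning gene. Hoxb, the longest locus, had a stretch of 74.7 kb between Hoxb13 and Hoxb9. H3K4me3 covered 19.9%, 25.7% and 24.8% of it after MM-401, after 4-OHT and untreated, with 5, 8 and 9 peaks. These peaks were unevenly placed. From 30 to 60 kb from the posterior edge, H3K4me3 stood at 0.13 tags per M per kb or less in each 10 kb. From 60 to 70 kb it stood at 6.20, 6.11 and 5.27 in the same order of conditions.

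Tags of peaks in each locus, per M filtered tags, measured how much signal the marks held. Levels are given with exact 95% Poisson intervals, and log2 ratios of treated over untreated with exact conditional 95% intervals, both for counting error only. Over the 4 loci H3K4me1 stood at 872 tags per M after MM-401 (860 to 884), 726 after 4-OHT (719 to 733) and 736 in untreated cells (727 to 745). H3K4me2 stood at 1763, 1370 and 1425 tags per M after MM-401, after 4-OHT and untreated, and H3K4me3 at 1356, 1337 and 1391. MM-401 cells thus had the highest H3K4me1 and H3K4me2 and nearly the same H3K4me3 as the others. The log2 ratio of MM-401 over untreated was 0.24 (0.22 to 0.27) for H3K4me1, 0.31 (0.29 to 0.33) for H3K4me2 and -0.04 (-0.06 to -0.01) for H3K4me3. The log2 ratio of 4-OHT over untreated was -0.02 (-0.04 to 0.00) for H3K4me1, -0.06 (-0.07 to -0.04) for H3K4me2 and -0.06 (-0.08 to -0.04) for H3K4me3. Per covered kb the H3K4me3 ratio of MM-401 was 0.0025, so its sign rests on the covered length.

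**Figure D2:**
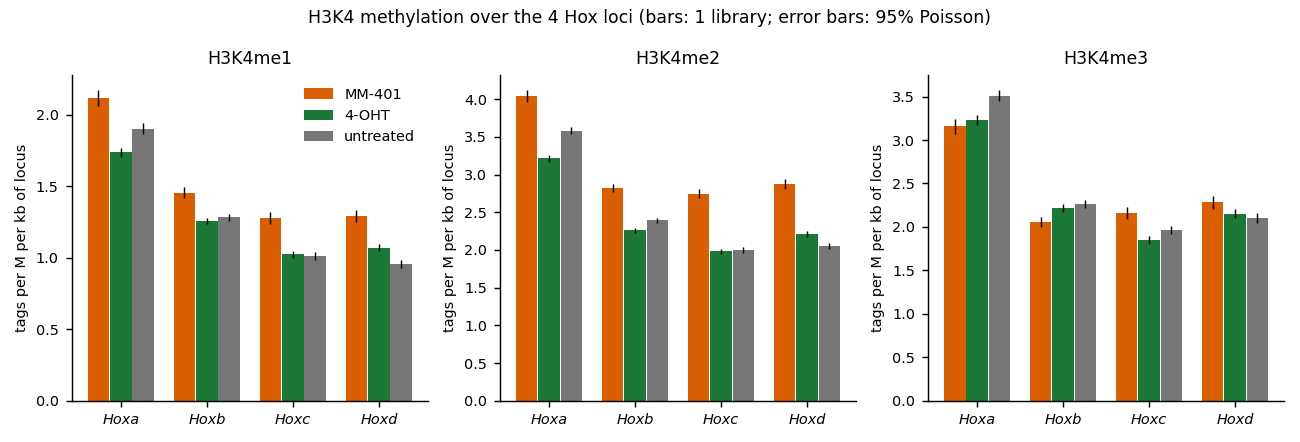
Tags per M filtered tags and per kb of locus for each mark in MM-401 (orange), 4-OHT (green) and untreated (grey) cells, by cluster, with exact 95% Poisson intervals and 1 library a bar. The MM-401 bars are highest for H3K4me1 and H3K4me2 in all 4 clusters, while for H3K4me3 they are lowest in Hoxa and Hoxb and highest in Hoxc and Hoxd.

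In tags per M the clusters fell into 2 pairs after MM-401. H3K4me3 stood at 396, 405 and 440 tags per M over Hoxa and at 399, 430 and 439 over Hoxb after MM-401, after 4-OHT and untreated. It stood at 293, 251 and 266 over Hoxc and at 267, 251 and 246 over Hoxd in the same order. The log2 ratio of MM-401 over untreated for H3K4me3 was therefore below 0 in Hoxa, at -0.15 (-0.20 to -0.10), and in Hoxb, at -0.14 (-0.18 to -0.09), and above 0 in Hoxc, at 0.14 (0.08 to 0.20), and in Hoxd, at 0.12 (0.06 to 0.18). For H3K4me1 the ratio was 0.16 in Hoxa, 0.18 in Hoxb, 0.34 in Hoxc and 0.43 in Hoxd. For H3K4me2 it was 0.17, 0.24, 0.46 and 0.49 in the same order. Over the whole locus Hoxc and Hoxd thus had the higher ratio in tags per M for every mark. Per covered kb the H3K4me3 ratio was -0.06 in Hoxa, 0.02 in Hoxb, 0.12 in Hoxc and -0.02 in Hoxd. The pairing for H3K4me3 therefore rests in part on the covered length. Each cluster is a single locus in 1 library a condition, and the difference between clusters was not tested.

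After 4-OHT the ratios were smaller. For H3K4me1 the log2 ratio of 4-OHT over untreated was -0.13 (-0.17 to -0.09) in Hoxa, -0.03 in Hoxb, 0.02 in Hoxc and 0.17 (0.11 to 0.22) in Hoxd. For H3K4me2 it was -0.16, -0.08, -0.01 and 0.11 in that order, and for H3K4me3 it was -0.12, -0.03, -0.09 and 0.03. In tags per M Hoxa was lowest and Hoxd highest for every mark. Per covered kb the H3K4me3 ratio was -0.07 in Hoxa, -0.04 in Hoxb, -0.03 in Hoxc and -0.13 in Hoxd, so Hoxd was the lowest there. MM-401 and 4-OHT cells are set against the same untreated libraries, so the 2 sets of ratios are not independent.

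Position along the clusters was examined in 3 segments: anterior (paralogs 1 to 4), middle (5 to 8) and posterior (9 to 13), the outer 2 with their flank. The cuts were made next to paralogs 4 and 9. Because gene models overlap, the annotated starts of Hoxa3, Hoxb3 and Hoxd3 lie in the middle segments, and their signal is counted there. Pooled over the 4 clusters, the middle segment had the most tags per M per kb of segment. Its H3K4me3 stood at 3.18 tags per M per kb after MM-401, 3.05 after 4-OHT and 3.25 in untreated cells. The posterior segments stood at 2.43, 2.36 and 2.37, and the anterior segments at 1.90, 1.96 and 2.10, in the same order of conditions. Pooled H3K4me1 was also highest in the middle segments, at 1.46 tags per M per kb in untreated cells, with 1.25 in each of the others. By cluster, untreated H3K4me1 was highest in the middle in Hoxb only, at 1.64 against 1.23 (anterior) and 1.19 (posterior). The anterior segment was higher in Hoxa (2.13 against 2.04). The posterior segment was higher in Hoxc (1.06 against 1.04) and Hoxd (1.29 against 0.90). Per covered kb, pooled untreated H3K4me3 was lowest in the middle, at 6.61 against 6.80 (anterior) and 7.02 (posterior). H3K4me1 was too, at 2.18 against 2.23 and 2.28, but H3K4me2 was highest there, at 5.25 against 4.73 and 4.97. The outer segments hold the flanks, and the posterior one of Hoxb holds the stretch between Hoxb13 and Hoxb9. The Hoxa middle segment holds Hoxa5, whose start carried the most H3K4me3 of the described genes.

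In tags per M the log2 ratio of MM-401 over untreated also differed along the clusters. For H3K4me1 it was 0.13 (0.08 to 0.17) in the anterior segments, 0.35 (0.29 to 0.41) in the middle and 0.28 (0.24 to 0.32) in the posterior. For H3K4me3 it was -0.15 (-0.20 to -0.10) in the anterior segments, -0.03 (-0.09 to 0.02) in the middle and 0.03 (-0.01 to 0.07) in the posterior. Per covered kb the H3K4me1 ratios were 0.31, 0.36 and 0.36 in the anterior, middle and posterior segments. Those of H3K4me3 were -0.03, 0.03 and 0.01. The differences between segments therefore rest largely on the covered length. In tags per M, H3K4me2 was above untreated in all 12 segments of the 4 clusters, H3K4me1 in 11 of 12 and H3K4me3 in 4 of 12. The pairing of the clusters did not hold in every segment. The Hoxc anterior segment stood at -0.21 (-0.37 to -0.06) for H3K4me3, below all 3 Hoxa segments (-0.20, -0.14 and -0.11), and at 0.12 (-0.03 to 0.27) for H3K4me1, below the Hoxa posterior segment (0.34). The segment furthest above untreated in tags per M was the Hoxc middle (Hoxc5, Hoxc6 and Hoxc8), at 0.71 (0.59 to 0.83) for H3K4me1 and 0.63 (0.55 to 0.71) for H3K4me2. Per covered kb it stood at 0.45 for H3K4me1, below the Hoxd middle (0.50). For H3K4me2 it stood at 0.38 per covered kb, below the Hoxd posterior (0.43). In tags per M after 4-OHT, 6 of 12 segments were above untreated for H3K4me1, 4 for H3K4me2 and 3 for H3K4me3. Their ratios lay between -0.22 and 0.20.

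**Figure D3:**
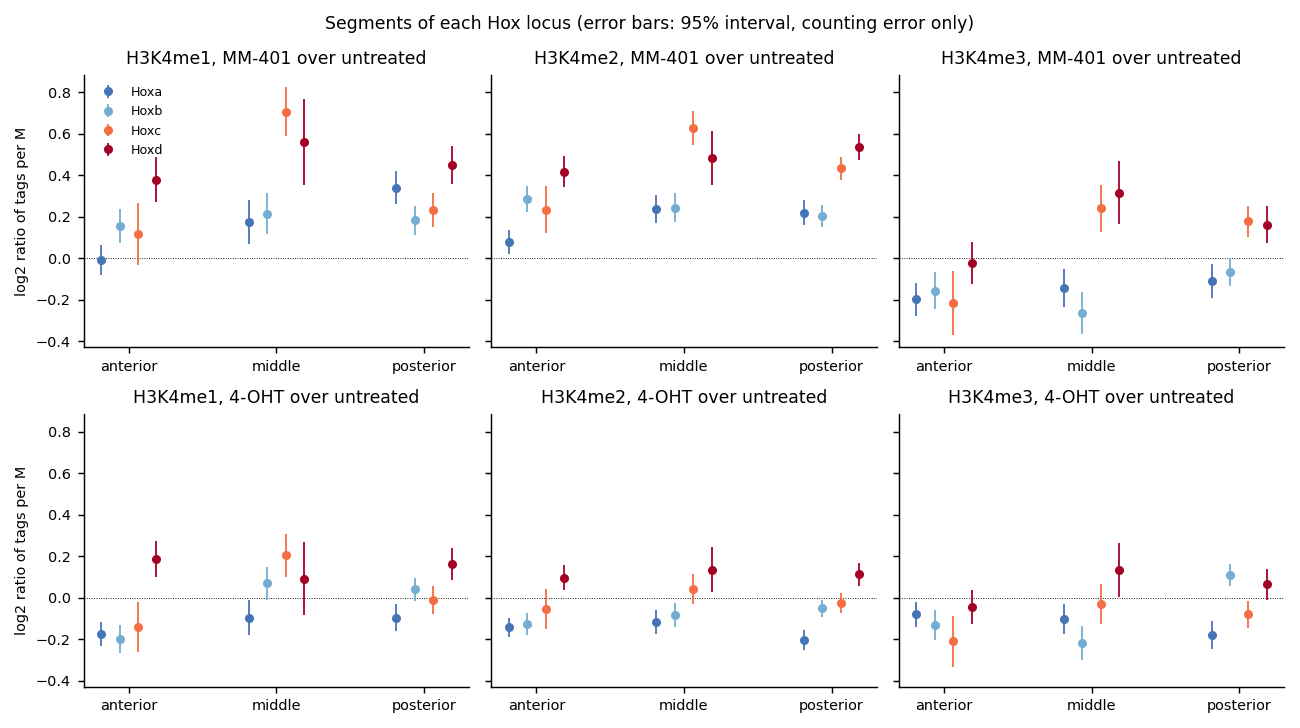
Log2 ratio of tags per M, treated over untreated, in the anterior, middle and posterior segments of each cluster, with 95% intervals for counting error only. After MM-401 (top) the Hoxc middle segment stands highest for H3K4me1, at 0.71, and the Hoxb middle segment lowest for H3K4me3, at -0.26, while after 4-OHT (bottom) every segment lies between -0.22 and 0.20.

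At single genes, tags were summed in a window of 2 kb on each side of the annotated start, so that levels compare between genes over the same length of 4 kb. All 38 Hox starts had an H3K4me1 and an H3K4me2 peak in each condition, whereas 72.4%, 77.4% and 76.6% of all gene starts had H3K4me1 and 74.3%, 76.8% and 76.6% had H3K4me2 after MM-401, after 4-OHT and untreated. H3K4me3 was called at 37, 38 and 38 of the 38 Hox starts and at 70.7%, 73.8% and 73.8% of all starts. The median H3K4me1 of the Hox starts was 8.66, 7.03 and 6.76 tags per M, against 6.75, 6.32 and 6.20 over all starts with the mark, after MM-401, after 4-OHT and untreated. The median H3K4me3 was 15.3, 14.5 and 15.6 tags per M, against 44.6, 37.2 and 38.1 over all starts with the mark. Hox starts were thus above the median of marked starts for H3K4me1, at 29, 26 and 24 of 38 genes, and below it for H3K4me3, at 36, 35 and 35 of 38 genes. The covered share of the window differed less: H3K4me3 covered a median of 66.4%, 63.6% and 63.0% at Hox starts and 70.4%, 68.3% and 66.7% at all marked starts.

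**Figure D4:**
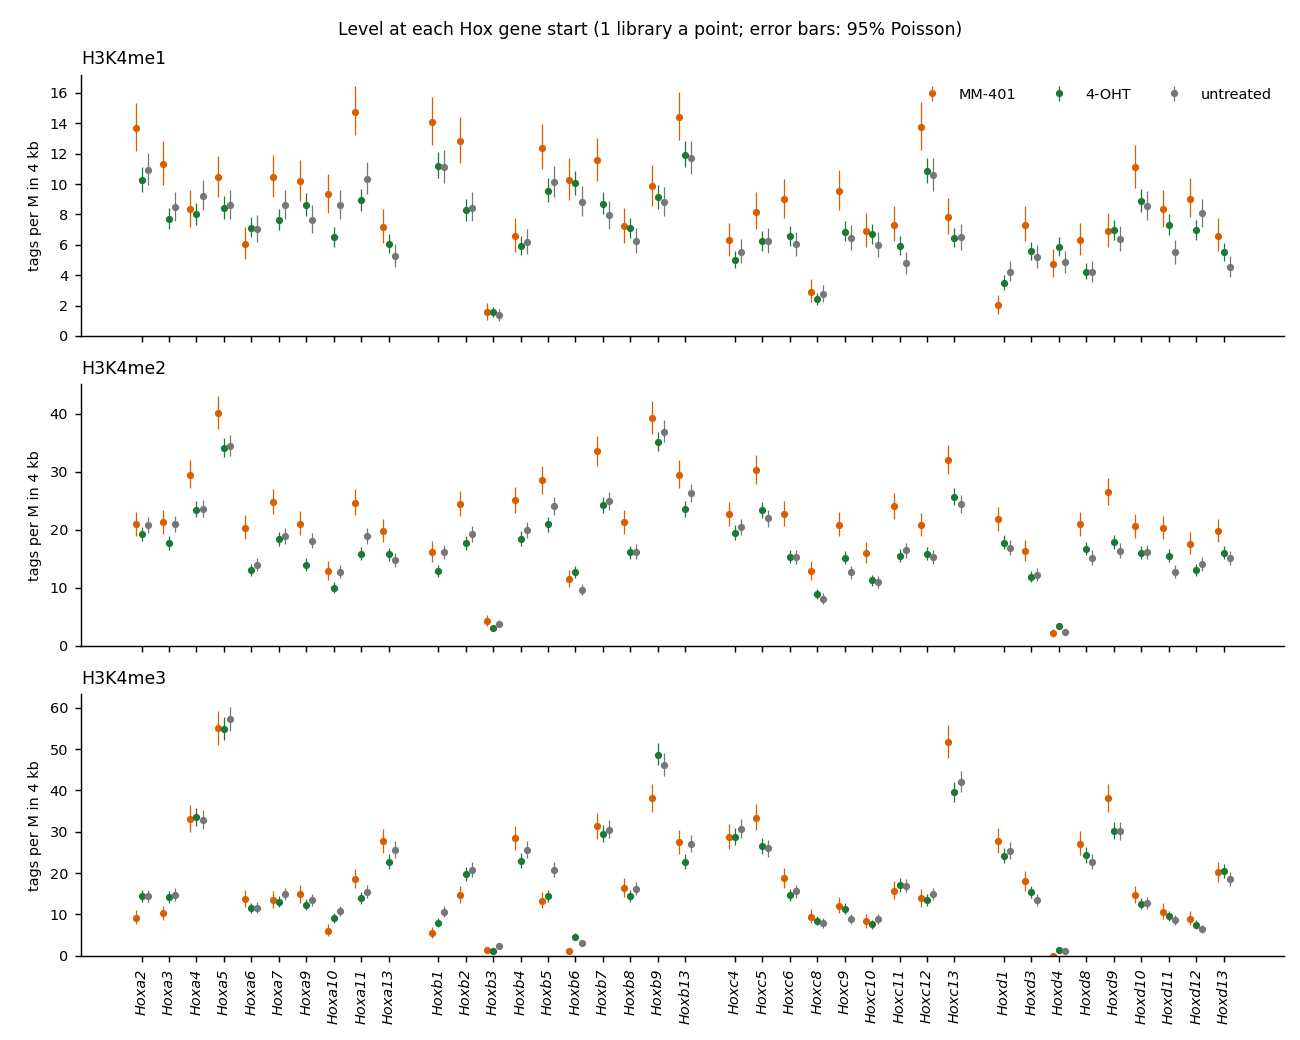
Tags per M in 4 kb around each of the 38 Hox gene starts, in MM-401 (orange), 4-OHT (green) and untreated (grey) cells, with exact 95% Poisson intervals and 1 library a point. Hoxa5, Hoxb9 and Hoxc13 stand highest for H3K4me3 in untreated cells, and Hoxb3, Hoxb6 and Hoxd4 lowest.

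Levels differed more between Hox genes than between conditions. Hoxa5, a regulator of lung and axial skeleton development, had the most H3K4me3, with 55.0 tags per M after MM-401, 54.9 after 4-OHT and 57.2 in untreated cells. Hoxc13, a hair follicle and nail gene, had 51.8, 39.7 and 42.1, and Hoxb9 had 38.1, 48.7 and 46.2 in the same order. Hoxa5 and Hoxc13 do not overlap in their 95% intervals in 4-OHT and untreated cells, but do after MM-401. Hoxa4 had 33.1, 33.5 and 32.9, the next after these in 4-OHT and untreated cells, while after MM-401 Hoxd9 and Hoxc5 also stood above it. The lowest were Hoxb3, at 1.40, 1.18 and 2.47, Hoxb6, at 1.10, 4.66 and 3.18, and Hoxd4, with no H3K4me3 peak after MM-401 against 1.40 after 4-OHT and 1.11 untreated. The annotated starts of Hoxb3 and Hoxb6 are the outermost ends of the gene models, and that of Hoxb3 lies just beyond the annotated end of Hoxb5, so their windows may miss the promoters in use. The same may hold for Hoxd4, whose start is its outermost RefSeq promoter. Inside that gene, 4.13 kb from the start, the microRNA gene Mir10b had 14.3 tags per M of untreated H3K4me3.

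The ranking differed between marks. After MM-401, H3K4me1 was highest at Hoxa11, with 14.7, 8.92 and 10.3 tags per M, at Hoxb13, with 14.4, 11.9 and 11.7, at Hoxb1, with 14.1, 11.2 and 11.1, and at Hoxc12, with 13.8, 10.9 and 10.6, after MM-401, after 4-OHT and untreated. Of these, Hoxb1 was among the genes of low H3K4me3. H3K4me2 was highest at Hoxa5, with 40.1, 34.2 and 34.5, and at Hoxb9, with 39.3, 35.2 and 37.0, which were also the highest for H3K4me3 in untreated cells. Hoxb3 was the lowest for H3K4me1, at 1.55, 1.57 and 1.37.

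Paralogs of the same number did not share a level. Of the paralog group 13, which acts in limb, urogenital and tail development, untreated H3K4me3 was 25.7 tags per M at Hoxa13, 27.0 at Hoxb13, 42.1 at Hoxc13 and 18.6 at Hoxd13. In group 9 it was 13.4 at Hoxa9, 46.2 at Hoxb9, 8.90 at Hoxc9 and 30.2 at Hoxd9. In group 4 it was 32.9 at Hoxa4, 25.7 at Hoxb4, 30.7 at Hoxc4 and 1.11 at Hoxd4, whose window may miss the promoter in use.

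After MM-401, H3K4me1 was higher than untreated at 34 of 38 Hox starts, where 64.6% of all tested starts were higher by any amount. The median log2 ratio was 0.30 over the Hox starts and 0.10 over all 14831 starts tested. At least 1.5-fold higher were 4 of 38, Hoxb2, Hoxc11, Hoxd8 and Hoxd11, where 4.25% of all starts were. Hoxb2, which acts in the hindbrain, had 12.8, 8.29 and 8.45 tags per M after MM-401, after 4-OHT and untreated, a log2 ratio of MM-401 over untreated of 0.60 (0.36 to 0.84). Hoxd11, which patterns the forearm, had 8.33, 7.32 and 5.50 in the same order, a ratio of 0.60 (0.30 to 0.89). Only 1 Hox start was at least 1.5-fold lower, where 6.70% of all starts were: Hoxd1, at 2.03, 3.48 and 4.23 tags per M, a ratio of -1.06 (-1.57 to -0.58). With whole peaks within 1 kb of the start, 6 were higher and 5 lower, and in windows of 1 kb 6 were higher and 0 lower. The H3K4me1 peak at Hoxd1 covered 29.7% of the window after MM-401, 65.2% after 4-OHT and 71.1% in untreated cells.

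H3K4me2 was higher after MM-401 than untreated at 37 of 38 Hox starts, where 85.9% of all starts were higher. The median log2 ratio was 0.37 over the Hox starts and 0.21 over all 15282 tested. At least 1.5-fold higher were 4 of 38, Hoxc8, Hoxc9, Hoxd9 and Hoxd11, where 2.77% of all starts were, and none was at least 1.5-fold lower, where 1.58% were. Hoxc9 had 20.9, 15.2 and 12.7 tags per M after MM-401, after 4-OHT and untreated, a ratio of MM-401 over untreated of 0.72 (0.53 to 0.91). Hoxd9 had 26.6, 17.8 and 16.4 in that order, a ratio of 0.70 (0.53 to 0.87). All 4 genes lie in the Hoxc and Hoxd clusters, whose median ratios were 0.54 and 0.39, and the medians of Hoxa and Hoxb were 0.27 and 0.25. When ratios were centred on the median of all genes, no Hox start was past 1.5-fold for H3K4me2 and only Hoxd1 was for H3K4me1.

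H3K4me3 after MM-401 stood at least 1.5-fold below untreated at 6 genes of Hoxa and Hoxb. Within classes of like untreated level, the Hox share was near that of all starts, as given below. Of 37 Hox starts with the mark in both libraries, 22 were higher and 15 lower than untreated, where 69.9% of all starts were higher. The median log2 ratio was 0.04 over the Hox starts and 0.15 over all 14564 tested. No Hox start was at least 1.5-fold higher, where 2.50% of all were, and 6 were at least 1.5-fold lower, where 5.73% of all were. Hoxb1, a hindbrain gene and the most anterior of its cluster, had 5.57 tags per M after MM-401, 7.91 after 4-OHT and 10.6 in untreated cells, a ratio of MM-401 over untreated of -0.93 (-1.33 to -0.55). Hoxa10, which acts in the uterus and lumbar spine, had 6.11, 9.05 and 10.8, a ratio of -0.82 (-1.20 to -0.45). Hoxa2 had 9.21, 14.4 and 14.5, a ratio of -0.65 (-0.96 to -0.35), and Hoxb5 had 13.4, 14.5 and 20.8, a ratio of -0.63 (-0.89 to -0.38). The 2 others, Hoxb6 at -1.53 (-2.46 to -0.71) and Hoxb3 at -0.83 (-1.67 to -0.05), rest on low levels, and all 6 lie in Hoxa or Hoxb.

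The median H3K4me3 ratio of MM-401 over untreated was -0.02 in Hoxa, -0.39 in Hoxb, 0.26 in Hoxc and 0.28 in Hoxd. All 8 Hoxd starts with the mark in both libraries were higher after MM-401, and 4 of 10 Hoxb starts were. Hoxd12 had 8.96, 7.52 and 6.45 tags per M after MM-401, after 4-OHT and untreated, a ratio of MM-401 over untreated of 0.47 (0.12 to 0.83). Hoxc9, which helps place the thoracic spine and limb, had 12.1, 11.4 and 8.90, a ratio of 0.45 (0.14 to 0.75). Hoxd3, which acts in the upper neck, had 18.0, 15.3 and 13.4, a ratio of 0.43 (0.18 to 0.67). The annotated Hoxd3 start lies on the posterior side of Hoxd4, so its window may miss the promoter in use. Starts of low untreated H3K4me3 ran lower after MM-401 across the genome: below the lower quartile of the Hox levels, 35.8% of 1543 starts were at least 1.5-fold lower, with a median of -0.40, and 4 of the 9 Hox starts there were, with a median of -0.10. Between the quartiles of the Hox levels, from 11.0 to 25.7 tags per M, the median was 0.12 over 18 Hox starts and -0.11 over 2567 starts. There 2 of the 18 Hox starts were at least 1.5-fold lower, where 9.74% of all were. Above the quartiles the median was 0.03 over 10 Hox starts and 0.18 over 7142 starts. In that class 0 Hox starts and 0.38% of all were at least 1.5-fold lower. Against starts of like untreated level, the Hox median was thus higher in the lower 2 classes and lower in the upper class. In windows of 1 kb on each side of the start, 2 Hox starts were at least 1.5-fold lower in place of 6, and 1 was at least 1.5-fold higher in place of 0.

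**Figure D5:**
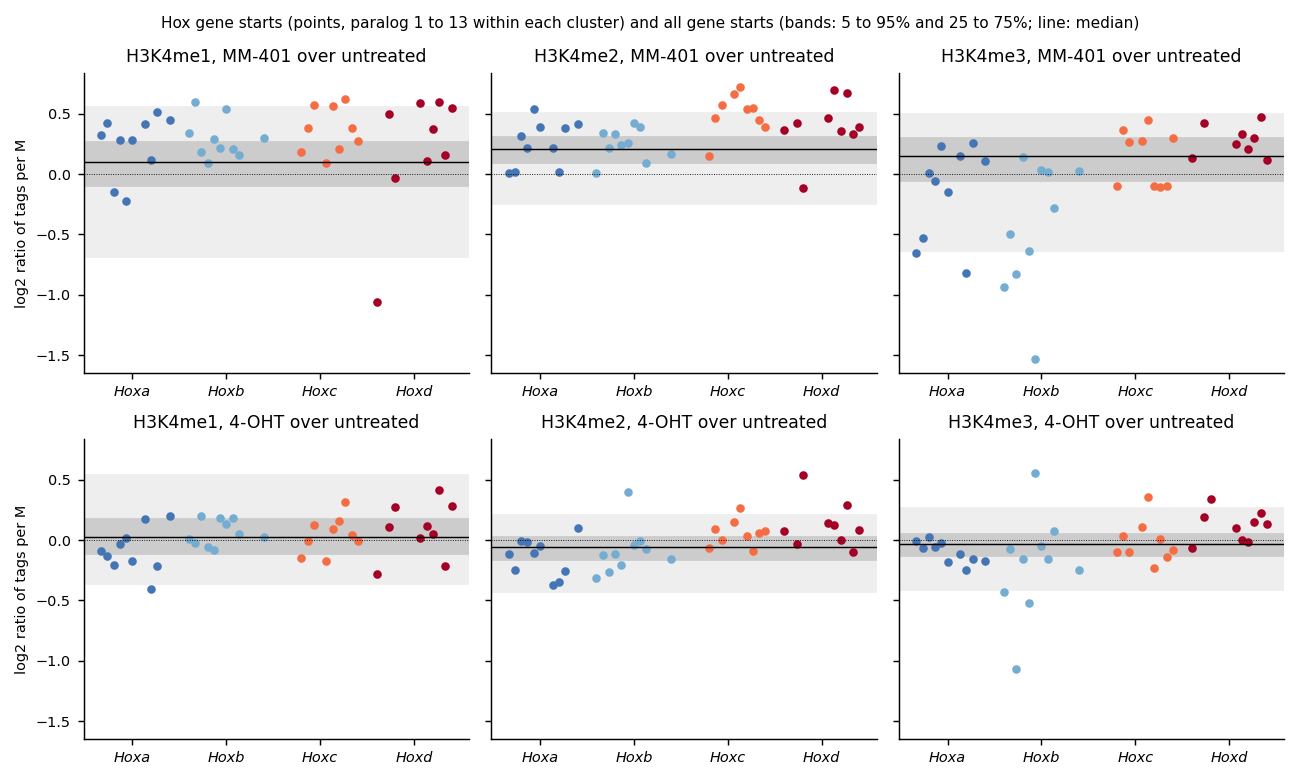
Log2 ratio of tags per M, treated over untreated, at each Hox gene start (points, by cluster and then by paralog number), over the central 50% (dark band), central 90% (light band) and median (line) of all gene starts. After MM-401 (top) most Hox points for H3K4me1 and H3K4me2 lie above the median line and points of Hoxa and Hoxb reach below the bands for H3K4me3, and after 4-OHT (bottom) most points lie within the bands.

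After 4-OHT, Hox starts stayed near the level of all starts. The median log2 ratio of 4-OHT over untreated was 0.02 for H3K4me1 over Hox starts and 0.03 over all. Above untreated were 22 of 38 Hox starts, where 55.1% of all were, with no Hox start at least 1.5-fold higher (4.32% of all) or lower (2.08% of all). For H3K4me2 it was -0.02 over Hox starts and -0.06 over all, with 15 of 38 Hox starts above untreated (31.6% of all) and none at least 1.5-fold higher (1.06% of all) or lower (2.19% of all). For H3K4me3 it was -0.06 over Hox starts and -0.04 over all, with 14 of 38 Hox starts above untreated (39.3% of all), none at least 1.5-fold higher (1.54% of all) and 1 at least 1.5-fold lower (2.28% of all). That gene was Hoxb3, at -1.07 (-1.74 to -0.42), one of the 3 lowest in H3K4me3. The call did not hold in windows of 1 kb or with whole peaks within 1 kb, where 1 Hox start was at least 1.5-fold higher and 0 were lower. Hoxb5 stood at -0.52 (-0.71 to -0.33) and Hoxb1 at -0.43 (-0.70 to -0.16) for H3K4me3 after 4-OHT, beside -0.63 and -0.93 after MM-401, with the same untreated library under both.

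Whole peaks were also compared between conditions. Of 95 untreated H3K4me3 peaks in the loci, 13 (13.7%) had no overlapping MM-401 peak, where 38.2% of all untreated H3K4me3 peaks of the genome had none. The same count was 12 of 103 (11.7%, genome 34.4%) for H3K4me1 and 11 of 103 (10.7%, genome 33.8%) for H3K4me2. MM-401 peaks with no untreated peak numbered 2 of 93 (2.15%, genome 3.36%) for H3K4me1, 2 of 91 (2.20%, genome 2.70%) for H3K4me2 and 0 of 81 (genome 0.864%) for H3K4me3. Hoxb held 7 of the 13 untreated H3K4me3 peaks without an MM-401 peak. The heaviest had 148 tags over 2128 bp, a score of 639, at chr11:96259789-96261916, 10.5 kb upstream of Hoxb9. Another, of 100 tags, lay 2.21 kb upstream of Hoxb8, and 1 of 46 tags lay at the start of Hoxb6. The MM-401 libraries held 49.5% to 60.3% of the untreated tags, so a weak peak can go uncalled there, and the part of depth in these counts was not tested.

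After 4-OHT, 3 of 95 untreated H3K4me3 peaks in the loci (3.16%, genome 8.19%) had no overlapping treated peak, beside 3 of 103 (2.91%, genome 9.35%) for H3K4me1 and 0 of 103 (genome 6.44%) for H3K4me2. Treated peaks with no untreated peak numbered 5 of 102 (4.90%, genome 16.7%) for H3K4me1, 6 of 111 (5.41%, genome 18.2%) for H3K4me2 and 1 of 95 (1.05%, genome 15.6%) for H3K4me3. All 3 H3K4me3 peaks absent after 4-OHT were weak, with 28 to 40 tags, near Hoxa4, Hoxb2 and Hoxc6, and each was also absent after MM-401. The H3K4me3 peak seen after 4-OHT alone lay 2.85 kb from the start of Hoxd9, with 40 tags.

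Mll1 was called at 6 places in the loci of untreated cells, 2 in Hoxa, 1 in Hoxb, 3 in Hoxc and none in Hoxd. That is 10.5 peaks per Mb of Hox locus, against 1.48 per Mb of effective genome for all 4004 Mll1 peaks. The Mll1 library was weak: 0.285% of its tags lay in peaks, and the 6 peaks had 9 to 18 tags, scores of 51.2 to 74.2 and false discovery rates of 1.72% to 4.44% in the authors' list. Within 2 kb of a start were 2 of 38 Hox genes (5.26%), where 5.27% of all starts had an Mll1 peak. The Hox loci thus had more Mll1 peaks per length than the genome and the same share of starts with one.

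The 2 starts were those of Hoxa2 and Hoxc11. The Hoxa2 peak, chr6:52164611-52164737, lay inside the gene, 144 bp downstream of the start and next to the promoter window printed above, and it overlapped H3K4me1, H3K4me2 and H3K4me3 peaks in all 3 conditions. H3K4me3 within 2 kb of it was 9.21, 14.9 and 15.0 tags per M after MM-401, after 4-OHT and untreated. The Hoxc11 peak, chr15:102953380-102953567, lay 1041 bp upstream of the start, with 9.30, 9.66 and 9.42 tags per M of H3K4me3. The strongest of the 6, with 18 tags, was inside Hoxc6, at chr15:103001241-103001464, 3120 bp downstream of the start. H3K4me1 within 2 kb of it was 9.19, 5.87 and 4.55 tags per M after MM-401, after 4-OHT and untreated. The other 3 lay 2754 bp downstream of the Hoxa5 start, 3826 bp upstream of Hoxb9 and 8600 bp downstream of Hoxc4, and the one by Hoxb9 overlapped no H3K4 methylation peak in any condition. Exon and intron positions were not used here, since the annotation gave gene ends only.

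The clusters also hold microRNA genes of the miR-10 and miR-196 families, which are known to target Hox transcripts. The mature 5p arms from RefSeq, with the seed (bases 2 to 8) in capitals, show that the 2 families have a seed each, ACCCUGU and AGGUAGU.
mmu-miR-10a-5p: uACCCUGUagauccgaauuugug
mmu-miR-10b-5p: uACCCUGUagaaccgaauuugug
mmu-miR-196a-5p: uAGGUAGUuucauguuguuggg
mmu-miR-196b-5p: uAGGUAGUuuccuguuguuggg
Mir10a, 1.05 kb from the Hoxb4 start, had 18.6, 15.4 and 17.1 tags per M of H3K4me3 in 4 kb after MM-401, after 4-OHT and untreated. That window holds the Hoxb4 start, so the signal of the 2 genes cannot be told apart. Mir10b, 4.13 kb from the Hoxd4 start, had 15.3, 12.0 and 14.3, more than the annotated Hoxd4 start itself in each condition. Mir196b, between Hoxa9 and Hoxa10, had 10.3, 12.9 and 16.3. The 2 genes that encode miR-196a had little: Mir196a-1 near Hoxb9 had no H3K4me3 peak after MM-401 against 1.82 after 4-OHT and 1.27 untreated, and Mir196a-2 near Hoxc9 had 0.54 and 0.21 after MM-401 and after 4-OHT and no peak in untreated cells. The miR-10 genes thus had at least 12.0 tags per M of H3K4me3 in each condition and the miR-196a genes at most 1.82.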

How the data were processed

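Peak lists of 10 precipitated libraries were used; the 4 inputs entered only as controls of the authors' peak calls. Per the submitters' processing notes reads were handled with Bowtie2, SAMtools 1.5 and MACS2 on mm10, while per the file headers peaks were called in each library alone with MACS 1.4.2 at a p cutoff of 1e-05; the headers were taken as right. The deposited counts are tags per peak, with no scaling. The deposited score of a peak is its p as a negative log10, times 10. Of Mll1, the deposited ratio (fold enrichment) was not used, and the percent deposited is a false discovery rate.

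Tags of a peak were shared out by the length of its overlap with a locus, segment or window and divided by the filtered tags of its library, with Python 3.11.15, pandas 2.3.3, NumPy 2.4.6 and SciPy 1.17.1. Signal outside peaks is not in the lists. Gene ends are from RefSeq (GRCm38). Starts are the outermost RefSeq promoter for 22 of 38 Hox genes and the posterior-side end for 16. Over all genes 17492 starts are the promoter, and 3100 starts of genes outside the clusters are the gene end with more H3K4me3. Windows of 2 pairs of neighbouring Hox starts overlap. A ratio needed tags in both libraries, and past 1.5-fold is a size, not a test. No p-values were computed because each group is 1 library. Intervals are exact at 95% and cover counting error only. The scripts were tested on simulated data. Members and lists were chosen with earlier results of these data known, and the classes of untreated level were added after the data were examined. Alternatives were the scaling, centring, score, window, margin, number of peaks and peak assignment.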

Additional observations from a re-analysis of the deposited data

How the results depend on the processing

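No paired analysis was possible because each group is 1 library. Only the H3K4me3 ratio of MM-401 over the loci crossed 0, per covered kb. Over the loci 17 of 30 alternatives stayed within the counting interval and 13 moved, and of the counts of Hox starts past 1.5-fold 23 of 36 stayed within 1.5 times and 13 moved. Per M tags in peaks, the log2 ratios over the loci for MM-401 over untreated were 0.37 (H3K4me1), 0.29 (H3K4me2) and -0.091 (H3K4me3), and for 4-OHT over untreated -0.10, -0.18 and -0.14. With an equal number of peaks in both lists, those for MM-401 were 0.29, 0.33 and -0.0080. Per covered kb they were 0.34 (H3K4me1) and 0.0025 (H3K4me3) for MM-401 and -0.084 (H3K4me1) and -0.090 (H3K4me2) for 4-OHT. Hox starts past 1.5-fold after MM-401 numbered 11 for H3K4me1 per M tags in peaks (10 higher, 1 lower), 1 when centred on all genes (lower) and 11 with whole peaks within 1 kb (6 higher, 5 lower), against 5 (4 higher, 1 lower); 0 centred and 9 with whole peaks (8 higher, 1 lower) for H3K4me2, against 4 (all higher); and 3 in 1 kb windows (1 higher, 2 lower) for H3K4me3, against 6 (all lower). After 4-OHT they numbered 1 (1 kb windows, higher) and 3 (whole peaks, 1 higher and 2 lower) for H3K4me1 and 1 (centred, higher), 1 (score of at least 100, higher) and 3 (whole peaks, 2 higher and 1 lower) for H3K4me2, against 0, and 2 (per M tags in peaks, both lower) and 2 (centred, 1 higher and 1 lower) for H3K4me3, against 1 (lower). That single H3K4me3 call turned to 1 higher and 0 lower in 1 kb windows and with whole peaks. The cause was not tested. Peaks below the calling threshold are not in the lists, so a start without a peak is not a start without the mark, and the shallower MM-401 libraries call fewer weak peaks.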

Other observations

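Genes that work with the Hox proteins were measured in the same windows. The 9 Hox cofactors (Meis, Pbx and Pknox genes, whose proteins bind DNA with Hox proteins) had a median log2 ratio of MM-401 over untreated of 0.15 for H3K4me1, 0.21 for H3K4me2 and 0.17 for H3K4me3, near the medians of all genes (0.10, 0.21 and 0.15). Meis2 had 54.7, 51.1 and 44.1 tags per M of H3K4me3 after MM-401, after 4-OHT and untreated, and Pbx3 had 74.1, 75.5 and 77.5. None of the 9 was past 1.5-fold for H3K4me3 or H3K4me2 under either treatment, and Pknox2 was for H3K4me1 under both, at 4.79, 4.28 and 2.80 tags per M.

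The 7 upstream regulators, the Cdx and retinoic acid receptor genes and the retinoic acid hydroxylase Cyp26a1, had a lower median H3K4me3 ratio after MM-401 than the cofactors. Their median log2 ratio of MM-401 over untreated was 0.32 for H3K4me1, 0.12 for H3K4me2 and -0.25 for H3K4me3, with 1 of 7 above untreated for H3K4me3, where 69.9% of all starts were. Cdx4, a Hox activator of the tail bud, had 8.12, 12.6 and 13.4 tags per M of H3K4me3 after MM-401, after 4-OHT and untreated, the only one of the 7 past 1.5-fold, where 5.73% of all starts were at least 1.5-fold lower. Rara, the exception, had 53.1, 44.9 and 45.2. Untreated Cdx1 (14.1), Cdx2 (21.6) and Cdx4 (13.4) lay in the class of 11.0 to 25.7 tags per M. All starts of that class had a median of -0.11 after MM-401, with 9.74% at least 1.5-fold lower. Meis3, the cofactor in that class (17.0 untreated), stood at -0.46. Rarb (31.6), Rarg (29.4) and Cyp26a1 (32.2) lay in the class above, of median 0.18, and stood at -0.19, -0.17 and -0.25. The part of untreated level was not tested. After 4-OHT the median of the 7 was -0.07 for H3K4me3.

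Of the ParaHox genes, which are related to the Hox genes, the Cdx genes were counted above as upstream regulators. Gsx1, Gsx2 and Pdx1 had median ratios of MM-401 over untreated of 0.41 for H3K4me1, 0.31 for H3K4me2 and -0.12 for H3K4me3. The 10 neighbours of the clusters with a start had 0.19, 0.22 and 0.11 in the same order. Evx2, next to Hoxd13, had 7.72, 8.59 and 8.06 tags per M of H3K4me3 after MM-401, after 4-OHT and untreated, while Mtx2, a mitochondrial outer membrane gene on the far side of Hoxd1, had 61.0, 44.2 and 45.9. Ttll6, beyond Hoxb13, had no H3K4me3 peak at its start after MM-401, against 4.81 after 4-OHT and 4.76 untreated. The 7 Polycomb and Mll genes, among them Ezh2, Suz12 and Kmt2a, had medians of 0.15, 0.19 and 0.27, and all 7 were above untreated for each mark after MM-401, where 64.6% (H3K4me1), 85.9% (H3K4me2) and 69.9% (H3K4me3) of all starts were. None of these lists was tested.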
